A study of Mus musculus with 4 samples.

Results

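Cycling T and NK lymphocytes of the liver are described here: T cells and natural killer (NK) cells caught with the RNA of cell division. They were chosen by UMI counts, a UMI being 1 counted RNA molecule. A cell was a member if it held at least 2 UMIs of Mki67 and Top2a together and at least 1 UMI of Cd3d, Cd3e, Cd3g, Ncr1 or Klrb1c. It also had to hold none of Cd79a, C1qa, Csf3r, Siglech and Stab2, which mark B cells, macrophages, neutrophils, plasmacytoid dendritic cells and endothelium. This gave 351 members of 28525 barcoded cells, or of 25161 cells left by a filter (200 genes or more, mitochondrial UMIs of 10% or less). There were 99 members in Ex 1 and 44 in Ex 2, against 109 in Sed 1 and 99 in Sed 2. Because these genes chose the cells, their levels are given as description only.

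The libraries came from livers of male mice aged 8 weeks with MC38 tumours in a model where surgical stress promotes liver metastasis; MC38 is a colorectal cancer line of the mouse. The Ex mice had exercised before the operation and the Sed mice were sedentary, and both groups carried tumours and were killed 3 weeks after tumour injection. Strain, exercise regimen and the number of animals behind each library were not given in the sources used here. Cells carrying CD45, the surface protein of blood-derived cells, were taken with magnetic beads at a purity above 90% and profiled with the 10x 3' kit, version 3.1. The labels do not say that the 2 libraries of a group came from separate animals, so p-values measure only the spread between these libraries.

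A lymphocyte that meets its antigen or a growth-promoting cytokine leaves rest, copies its DNA in S phase, prepares in G2 phase and divides in M phase. Ki-67, the product of Mki67, coats mitotic chromosomes, and DNA topoisomerase II alpha, the product of Top2a, untangles them. Genes of S phase are driven mainly by E2F factors. Genes of G2 and M phase are switched on later by the complex of B-MYB, MuvB and FOXM1, which reads the cell cycle homology region (CHR, TTTGAA), together with NF-Y, which reads CCAAT boxes. In the liver, dividing lymphocytes can be effector T cells, regulatory T cells that restrain them, gamma-delta T cells, NK cells or type 1 innate lymphoid cells.

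The promoters of the genes that chose the members are shown first, with those of Cdk1, the kinase that starts mitosis, and of Ube2c, which loads ubiquitin for the exit from mitosis. Each is the 250 bases before the RefSeq start in GRCm38.p6, 5' to 3' on the strand of the gene. Capitals mark the CHR letters TTTGAA and the CCAAT box, each searched on both strands.
Mki67 (chr7:135716380-135716629, minus strand): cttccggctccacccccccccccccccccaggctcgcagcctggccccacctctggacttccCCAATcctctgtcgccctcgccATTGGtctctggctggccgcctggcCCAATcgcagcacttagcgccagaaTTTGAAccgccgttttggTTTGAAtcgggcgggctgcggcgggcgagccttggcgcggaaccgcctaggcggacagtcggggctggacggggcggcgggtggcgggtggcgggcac
Top2a (chr11:99024190-99024439, minus strand): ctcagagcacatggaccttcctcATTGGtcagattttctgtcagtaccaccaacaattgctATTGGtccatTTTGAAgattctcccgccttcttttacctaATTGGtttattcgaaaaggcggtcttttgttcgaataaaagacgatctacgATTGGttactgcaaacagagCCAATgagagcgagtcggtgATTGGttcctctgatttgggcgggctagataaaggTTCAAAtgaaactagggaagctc
Cdk1 (chr10:69352913-69353162, minus strand): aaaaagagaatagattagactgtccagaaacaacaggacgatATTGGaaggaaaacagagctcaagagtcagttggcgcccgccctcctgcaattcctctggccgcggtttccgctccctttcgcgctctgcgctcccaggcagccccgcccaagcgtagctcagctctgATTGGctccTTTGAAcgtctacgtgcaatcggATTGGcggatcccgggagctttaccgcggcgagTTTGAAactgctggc
Ube2c (chr2:164769679-164769928, plus strand): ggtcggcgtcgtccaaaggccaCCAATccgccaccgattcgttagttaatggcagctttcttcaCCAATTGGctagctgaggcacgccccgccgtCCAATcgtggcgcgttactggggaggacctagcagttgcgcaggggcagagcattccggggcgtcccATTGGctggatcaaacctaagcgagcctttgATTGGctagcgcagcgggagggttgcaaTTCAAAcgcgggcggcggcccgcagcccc
Mki67 and Cdk1 each held 2 CHR and 3 CCAAT matches, Top2a held 2 and 6, and Ube2c held 1 and 6, of which 1 pair overlapped. Of 32851 mouse promoters of this length, 16.0% held TTTGAA, 33.8% held CCAAT and 5.55% held both. Of the 50 genes in the list for G2 and M phase, 44 had a promoter in the RefSeq table, and 18 of these held TTTGAA, 33 held CCAAT and 15 held both. Of the 42 genes in the S phase list, 30 had one, with 6, 21 and 4 of these kinds. A match of letters describes the window and is no measure of binding.

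The members carried the label's markers. Birc5, which encodes survivin of the chromosomal passenger complex, had 297 and 281 CPM (counts per 1000000 UMIs of the summed cells) in the cycling cells of Ex 1 and Ex 2, against 371 and 348 CPM in those of Sed 1 and Sed 2. Stmn1, which encodes a microtubule destabiliser of dividing cells, had 851 and 560 CPM in the cycling cells of Ex 1 and Ex 2, against 867 and 980 CPM in those of Sed 1 and Sed 2. In gated cells with 0 UMIs of Mki67 and Top2a, called non-cycling here, Birc5 lay between 1.15 and 5.38 CPM and Stmn1 between 16.7 and 31.6 CPM. Birc5 and Stmn1 were thus far higher in cycling than in non-cycling cells of every library. Mki67 itself had 624 and 655 CPM in Ex 1 and Ex 2, against 509 and 762 CPM in Sed 1 and Sed 2. Top2a had 658 and 772 CPM in Ex 1 and Ex 2, against 500 and 757 CPM in Sed 1 and Sed 2.

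The genes with the highest level in cycling relative to non-cycling cells were parts of the mitotic machine, given without a test because the cells were chosen by cycle genes. The spindle gene Nusap1 had a mean log2 ratio of 6.60 to non-cycling cells over the 4 libraries, the hyaluronan receptor gene Hmmr, active at the spindle, 6.41, and Ccna2, which encodes cyclin A2, 6.14. The spindle assembly factor gene Tpx2 had 6.05, the centromere gene Cenpf 5.94 and the passenger complex gene Cdca8 5.78. S phase genes also stood higher: the histone genes Hist1h1b and Hist1h3c at 6.35 and 6.33, the PCNA clamp-associated Pclaf at 6.20 and the cohesin acetyltransferase gene Esco2 at 6.02. Genes lower in cycling cells included those of resting and surviving lymphocytes. Il7r, the receptor for interleukin 7, had 72.6 and 76.9 CPM in cycling cells of Ex 1 and Ex 2 and 40.7 and 68.3 CPM in those of Sed 1 and Sed 2, against 266 and 483 CPM in non-cycling cells of Ex 1 and Ex 2 and 355 and 175 CPM in those of Sed 1 and Sed 2. The mean log2 ratio of Il7r was -2.24, of the lymph node homing receptor gene Ccr7 -1.92, of the chromatin organiser gene Satb1 -1.85 and of the survival gene Bcl2 -1.78. Ccr7 ranged from -3.17 to -0.11 and was almost equal in Ex 1, at 57.9 CPM in cycling and 62.4 CPM in non-cycling cells. Of the neutrophil genes among the lowest, Retnlg was lower in cycling cells of all 4 libraries, with a mean log2 ratio of -3.86. Ngp and S100a9 had means of -4.32 and -2.16, but in Ex 1 they were higher in cycling cells, at log2 ratios of 4.67 and 3.57. General T cell genes were near equal, with log2 ratios of 0.06 for Trac, 0.16 for Trbc2 and -0.11 for Cd2.

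Some gated cells lay at or just under the threshold of 2 UMIs. Of the gated cells, 80 held exactly 2 UMIs of Mki67 and Top2a, 312 held exactly 1 and 242 held more than 3. The summed list of G2 and M phase, which does not hold Mki67 or Top2a, had 3484 and 2844 CPM in the cells with exactly 2 UMIs of Ex 1 and Ex 2, against 2845 and 3671 CPM in those of Sed 1 and Sed 2. Just outside, in cells with exactly 1 UMI, it had 2308 and 1831 CPM in Ex 1 and Ex 2, against 1921 and 1999 CPM in Sed 1 and Sed 2. In non-cycling cells it ranged from 1172 to 1419 CPM and in all members from 8437 to 9659 CPM. The sums on either side of the threshold thus lay between those of the non-cycling cells and of all members. Such a sum cannot tell cells of middle level from a mix of low and high cells. At exactly 2 UMIs the median cell held 16.5 and 18 UMIs of this list in Ex 1 and Ex 2, against 10 and 8 in Sed 1 and Sed 2. It held 6 to 8 at exactly 1, 4 to 6 among non-cycling cells and 48 to 123 among members. The median depths of the cells were 6883 and 5818 UMIs in Ex 1 and Ex 2 and 5947 and 5726 UMIs in Sed 1 and Sed 2 at exactly 2 UMIs, and 3754 to 5793 UMIs at exactly 1.

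In most members the list for G2 and M phase held more UMIs than the S phase list. In each cell the UMIs of the S phase list and of the list for G2 and M phase were added, and the second as a percent of both had a median of 61.9% in Ex 1 and 77.7% in Ex 2, against 69.6% in Sed 1 and 70.0% in Sed 2. The share passed 50% in 71 of 99 members of Ex 1 and 40 of 44 of Ex 2, against 84 of 109 of Sed 1 and 75 of 99 of Sed 2. Summed over cells, the share was 65.4% and 74.1% in the Ex libraries, against 73.9% and 71.9% in the Sed libraries. The groups overlapped, with means of 69.7% ± 6.16 for Ex and 72.9% ± 1.41 for Sed (SD, n = 2 each; two-sided exact permutation p = 1, where the smallest possible is 0.333). The list leaves out Mki67 and Top2a, but both peak in G2 and M phase, so the choice of the cells may set part of this share. The lists hold 42 and 50 genes of unlike level, so a share above 50% does not place a cell in a phase. In non-cycling cells too the list for G2 and M phase stood higher, at 1172 and 1419 CPM in Ex 1 and Ex 2. It had 1218 and 1391 CPM in those of Sed 1 and Sed 2. The S phase list had 834 and 773 CPM there in Ex, against 709 and 816 CPM in Sed.

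**Figure D1:**
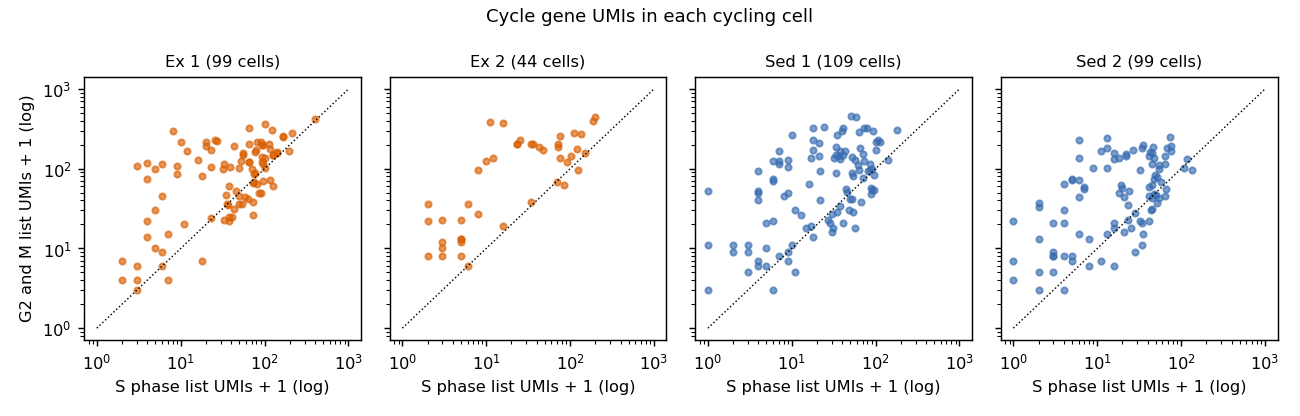
UMIs of the S phase list (x axis, plus 1, log scale) and of the list for G2 and M phase (y axis, plus 1, log scale) in each cycling cell, 1 panel per library; the dotted line marks equal counts. Most points lie above the line, 71 of 99 in Ex 1, 40 of 44 in Ex 2, 84 of 109 in Sed 1 and 75 of 99 in Sed 2. The lists differ in size and level, so the line marks no boundary between phases.

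The members held 1294344 and 663033 UMIs in Ex 1 and Ex 2, against 1278618 and 732308 UMIs in Sed 1 and Sed 2. Median depth per member was 11574 and 12833.5 UMIs in Ex 1 and Ex 2, against 10520 and 6481 UMIs in Sed 1 and Sed 2. Sed 2 thus stood apart as the shallowest. The deepest member held 58790 and 47535 UMIs in Ex 1 and Ex 2, against 27720 and 28905 UMIs in Sed 1 and Sed 2. Another member of Ex 2 held 46324 UMIs. Deep members weigh more in the sums. The median mitochondrial share was 3.54% and 3.78% in the Ex libraries, against 2.76% and 2.84% in the Sed libraries. RNA of other cells differed between libraries: the 8 neutrophil markers summed to 13987 and 43.7 CPM in the members of Ex 1 and Ex 2, against 981 and 1378 CPM in those of Sed 1 and Sed 2. The 8 B cell markers, whose highest gene was Ighm, summed to 224 and 186 CPM in Ex, against 59.4 and 101 CPM in Sed, with Pax5 at 0. The 6 monocyte markers, led by Plac8, summed to 1461 and 985 CPM in Ex, against 2388 and 3040 CPM in Sed. The 5 stellate cell and fibroblast markers summed to 0 and 125 CPM in Ex 1 and Ex 2, against 0.782 and 1.37 CPM in Sed 1 and Sed 2. The part of such RNA in the results was not tested, but 4 and 0 members of the Ex libraries and 5 and 7 of the Sed libraries took over 1% of their UMIs from other cell types, and the main count was also made without them. Libraries shared 166 barcodes, 1 of them a member's. The doublet caller Scrublet, run at its expected rate, would take 3 and 1 members of Ex and 4 and 6 of Sed, which were kept in the main analysis.

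The first comparison asked how many T and NK cells were dividing. Cycling cells made up 7.47% of 1325 gated T and NK cells in Ex 1 (exact binomial 95% interval 6.11 to 9.02) and 5.58% of 788 in Ex 2 (4.09 to 7.42). In Sed 1 they made up 11.6% of 938 gated cells (9.64 to 13.8) and in Sed 2 9.57% of 1034 (7.85 to 11.5). Both Ex libraries lay below both Sed libraries, with means of 6.53% ± 1.34 for Ex and 10.6% ± 1.45 for Sed (SD, n = 2 each). The difference of -4.07 percentage points had a two-sided exact permutation p of 0.333, the smallest that 2 against 2 libraries allow, so it could not pass 0.05. With every cell thinned to 2000 UMIs the means were 4.18% ± 1.66 for Ex and 7.17% ± 1.31 for Sed. The intervals cover counting error only. As background, 2 UMIs of Mki67 or Top2a were found in 0.571% and 0.978% of B cells of Ex 1 and Ex 2, against 0.586% and 2.40% in Sed 1 and Sed 2, at median depths of 1704 to 2742 UMIs. In Kupffer cells, the macrophages of the liver sinusoids, the share was 0.8% and 6% in Ex 1 and Ex 2, against 13.6% and 4.69% in Sed 1 and Sed 2, at 1480.5 to 4557.5 UMIs. B cells and Kupffer cells can divide too.

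The lineages among the dividing cells differed between the groups. Members were sorted by their own UMIs: cells with no Cd3 UMI formed an NK or innate lymphoid cell (ILC) gate, and cells with Cd3 were split by Foxp3, by Cd8a or Cd8b1, by Cd4, by the gamma-delta constant genes and by NK receptor genes. Cells with Cd8a or Cd8b1 and no Cd4, which mark cytotoxic T cells, were 35 of 99 members in Ex 1 and 14 of 44 in Ex 2, against 72 of 109 in Sed 1 and 63 of 99 in Sed 2. They made up 33.6% ± 2.50 of the members in Ex and 64.8% ± 1.71 in Sed (SD, n = 2 each), and the groups did not overlap. Foxp3-positive cells, which are regulatory T cells by their defining transcription factor, were 15 and 5 members in Ex, against 2 and 4 in Sed, or 13.3% ± 2.68 in Ex and 2.94% ± 1.56 in Sed. Cd4-positive cells without Foxp3 were 11 and 8 members in Ex, against 1 and 2 in Sed, or 14.6% ± 5.00 in Ex and 1.47% ± 0.780 in Sed. The Foxp3-positive and Cd4-positive shares of both Ex libraries lay above those of both Sed libraries. Each of these 3 differences had an exact permutation p of 0.333 (two-sided, adjusted p = 0.533 over 8 lineages).

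The other gates held few members. The NK or ILC gate took 6 of 99 members in Ex 1 and 8 of 44 in Ex 2, against 24 of 109 in Sed 1 and 14 of 99 in Sed 2. Its share was 12.1% ± 8.57 in Ex and 18.1% ± 5.57 in Sed, and the groups overlapped. T cells without Cd4 or Cd8 but with gamma-delta constant genes were 10 and 2 members in Ex, against 6 and 9 in Sed, with almost equal mean shares of 7.32% in Ex and 7.30% in Sed. T cells with Ncr1 or Klrb1c and no other lineage gene were 6 and 1 in Ex, against 3 and 2 in Sed. Cells with both Cd4 and Cd8 UMIs were 4 and 2 in Ex, against 0 and 1 in Sed, and T cells with none of these genes were 12 and 4 in Ex, against 1 and 4 in Sed.

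**Figure D2:**
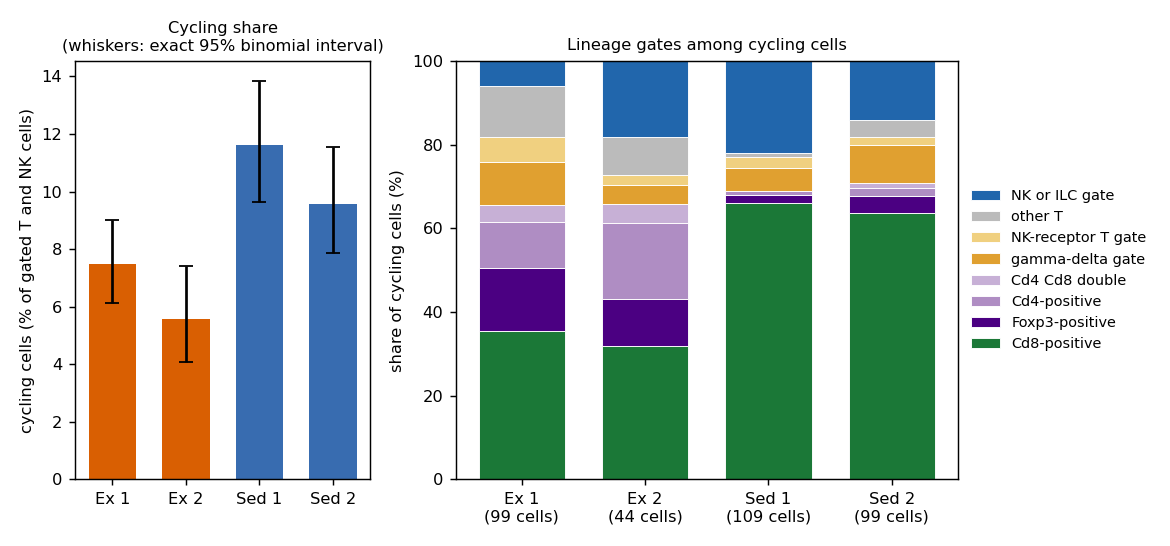
Left, cycling cells as a percent of gated T and NK cells in each library, with exact binomial 95% intervals; right, the lineage gates as a percent of the cycling cells of each library. Cd8-positive cells (green) take 35.4% and 31.8% of the bars of Ex 1 and Ex 2, against 66.1% and 63.6% in Sed 1 and Sed 2.

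Depth sets how often a weakly expressed gene is seen. Cd4 UMIs were found in 26.3% and 34.1% of members in Ex 1 and Ex 2, against 2.75% and 5.05% in Sed 1 and Sed 2. In B cells, which lack CD4, the share was 0.114% and 0.0889% in Ex, against 0.0837% and 0.150% in Sed, and in Kupffer cells 0.617% to 1.26%. Foxp3 was found in 15.2% and 11.4% of members in Ex, against 1.83% and 4.04% in Sed, and in no B cell or Kupffer cell. Cd8a or Cd8b1 was found in 41.4% and 40.9% of members in Ex, against 66.1% and 65.7% in Sed, and in 0.356% to 0.913% of B cells. Members were deeper than both background types. With the same cells thinned to 2000 UMIs, Cd4 was found in 12 of 98 and 9 of 44 members of Ex, against 0 of 109 and 1 of 95 of Sed, and in 0 to 0.174% of B cells. Foxp3 was then found in 6 and 2 of these members in Ex, against 0 and 3 in Sed. So the Cd4 share stood above both background types in the Ex libraries, while in Sed 1 neither gene was detectable at this depth (0 of 109 cells allow up to 2.75%). With the gates themselves applied after thinning, the Cd8-positive share was 33.7% in Ex and 58.1% in Sed. The Cd4-positive gate then held 3 of 67 and 1 of 23 members in Ex, against 0 of 56 and 0 of 69 in Sed. The Foxp3-positive gate held 4 and 0 in Ex, against 0 and 1 in Sed, so the groups overlapped.

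Non-cycling cells had the same direction for some lineages. Cd8-positive cells made up 31.4% ± 1.56 of the non-cycling cells in Ex and 46.8% ± 4.56 in Sed, and Cd4-positive cells 9.22% in Ex and 4.56% in Sed. Foxp3-positive cells made up 2.54% and 2.71% of the non-cycling cells in Ex 1 and Ex 2, against 1.99% and 1.94% in Sed 1 and Sed 2. The NK or ILC gate ran the other way from the cycling cells, with 20.3% ± 1.66 of non-cycling cells in Ex and 18.1% ± 0.197 in Sed. The gamma-delta gate held 13.6% ± 0.693 of them in Ex and 8.44% ± 1.78 in Sed (SD, n = 2 each). Within the Cd8-positive gate, 8.56% of cells were cycling in Ex 1 and 5.56% in Ex 2, against 16.4% in Sed 1 and 11.5% in Sed 2. Within the NK or ILC gate the cycling share was 3.62% ± 1.53 in Ex and 10.6% ± 3.72 in Sed. In both gates the Ex libraries lay below the Sed libraries. Among Foxp3-positive cells, 15 of 50 and 5 of 30 were cycling in Ex, against 2 of 21 and 4 of 23 in Sed, and the groups overlapped. Over all 4 libraries, cycling cells held fewer gamma-delta gate cells than non-cycling cells did, at 7.31% and 11.02%, and fewer T cells with no other lineage gene, at 6.54% and 15.7%. Both were lower in 4 of 4 libraries (two-sided exact sign-flip test at the smallest p that 4 libraries allow, adjusted p = 0.333 over 8 lineages). With cells thinned to 2000 UMIs the second difference was 0.51 points in the other direction.

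The second comparison asked which genes differed between Ex and Sed in the cycling cells. UMIs were summed over the members of each library and tested with edgeR's quasi-likelihood test and the Benjamini-Hochberg adjustment over all 7790 genes tested, at a threshold of 0.05. In the Ex libraries 45 genes (0.578%) were higher and 79 (1.01%) were lower, 1.59% in all. All 124 had both Ex libraries on 1 side of both Sed libraries, as did 43.4% of all genes tested. Log2 changes below are Ex over Sed with their SE, and adjusted p-values are those of this test. In such sums, fewer cells of a type and less RNA per cell cannot be told apart, and the summed members of the groups hold different lineage shares, so values within the Cd8-positive members follow.

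Cytotoxic genes were lower in the Ex members. Of the 18 genes of that list tested, 7 fell and none rose, with a median log2 change of -1.31, against 0.00 over all genes. Gzma, which encodes granzyme A, a protease delivered into target cells, had 623 and 937 CPM in Ex 1 and Ex 2, against 11009 and 5922 CPM in Sed 1 and Sed 2. Its change was -3.57 ± 0.36 (adjusted p = 0.0015), and 25 of 99 and 11 of 44 members of Ex held a Gzma UMI, against 76 of 109 and 58 of 99 of Sed. Gzma was thus low in both Ex libraries, with no overlap. Gzmk, which encodes granzyme K, had 37.1 and 33.2 CPM in Ex, against 180 and 197 CPM in Sed, a change of -2.50 ± 0.24 (adjusted p = 7.77e-05). Ccl5, a chemokine that effector T and NK cells store for release, had 1192 and 2213 CPM in Ex, against 7360 and 9775 CPM in Sed (-2.44 ± 0.26, adjusted p = 0.000157). Neither gene overlapped between the groups. The chemokine gene Ccl4 changed by -1.36 ± 0.21 (adjusted p = 0.00176), the granule membrane gene Nkg7 by -1.12 ± 0.20 (adjusted p = 0.00617), the death ligand gene Fasl by -1.27 ± 0.28 (adjusted p = 0.0253) and the protease gene Ctsw by -0.98 ± 0.21 (adjusted p = 0.0212). In GRCm38 (GENCODE vM21) Gzma (ENSMUSG00000023132) and Gzmk (ENSMUSG00000042385) lie near each other on chromosome 13, at 113093825 to 113100981 and 113171608 to 113225908.

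The perforin gene Prf1 had 107 and 204 CPM in Ex, against 627 and 287 CPM in Sed, and did not pass (adjusted p = 0.438). Gzmb, for granzyme B, had 402 and 879 CPM in Ex, against 1902 and 1523 CPM in Sed and missed the threshold (-1.55 ± 0.32, adjusted p = 0.052); it was picked after its value was seen. Gzmd had 0 UMIs in both Ex libraries, against 691 and 24.6 CPM in Sed, and 40.6% of its UMIs lay in 1 cell. Without single libraries some calls ended: Nkg7 had adjusted p = 0.0623 without Ex 2, Fasl 0.153 without Ex 1 and Ctsw 0.153 without Sed 1. With 1 library left out, Prf1 changed by -2.23 to -0.95 and Gzmb by -2.15 to -1.12. Such a fit leaves 1 group with a lone library, so that group shows no spread of its own. With the gate widened to 1 UMI of Mki67 and Top2a, Gzma and Nkg7 both had adjusted p = 0.0505, Ctsw 0.164 and Fasl 0.148.

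Receptors and adaptors of NK cells were lower too. Of 18 genes in the list 12 fell, none rose and all 18 had values below 0, with a median of -1.26. Tyrobp, which encodes DAP12, the signalling adaptor of activating NK receptors, had 320 and 299 CPM in Ex, against 895 and 651 CPM in Sed (-1.43 ± 0.22, adjusted p = 0.00176). Fcer1g, which encodes the Fc receptor gamma chain, had 260 and 267 CPM in Ex, against 730 and 542 CPM in Sed (-1.39 ± 0.21, adjusted p = 0.00176). The lectin receptor gene Klre1 had 107 and 143 CPM in Ex, against 301 and 330 CPM in Sed (-1.45 ± 0.20, adjusted p = 0.00114). These 3 genes did not overlap between the groups. Cd7, an early surface marker of T and NK cells, changed by -1.74 ± 0.23 (adjusted p = 0.000993), and Klra9, one of the Ly49 receptors, by -2.01 ± 0.34 (adjusted p = 0.00401). Ly49 genes are near copies, so reads could be split between them. Cd244, which encodes the receptor 2B4, had 6.18 and 22.6 CPM in Ex, against 83.7 and 120 CPM in Sed (-3.11 ± 0.39, adjusted p = 0.00111). With the gate at 1 UMI, Klra9 had adjusted p = 0.174 and Fcer1g 0.0505, and by the DESeq2 Wald test Klra9 had 0.072.

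Genes of naive and memory-like T cells moved the other way. Of 13 in the list 6 rose, none fell and 12 had values above 0, with a median of 1.67. Tcf7, which encodes TCF-1, the factor that keeps T cells able to renew themselves, had 92.7 and 125 CPM in Ex, against 30.5 and 23.2 CPM in Sed (1.85 ± 0.27, adjusted p = 0.0015). Ccr7 had 57.9 and 42.2 CPM in Ex, against 8.60 and 8.19 CPM in Sed (2.47 ± 0.39, adjusted p = 0.00216). Satb1 had 100.4 and 101.1 CPM in Ex, against 31.3 and 38.2 CPM in Sed (1.45 ± 0.25, adjusted p = 0.00452). All 3 were high in both Ex libraries, with no overlap. The other members that rose were Slamf6, a receptor of stem-like CD8 T cells, at 1.80 ± 0.33 (adjusted p = 0.00798), the transcription regulator gene Id3 at 1.75 ± 0.36 (adjusted p = 0.0175) and S1pr1, the receptor that lets T cells leave lymph nodes, at 1.67 ± 0.35 (adjusted p = 0.0185). Il7r and Lef1 of the same list did not pass, with changes of 0.40 and 0.84. By the DESeq2 Wald test Satb1 had adjusted p = 0.0772, Slamf6 0.0945, Id3 0.285 and S1pr1 0.353, and without Sed 1 Id3 had 0.0948. With the gate at 1 UMI Slamf6 had adjusted p = 0.0581 and Id3 0.714, and with the gate at 3 UMIs S1pr1 had 0.0745.

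**Figure D3:**
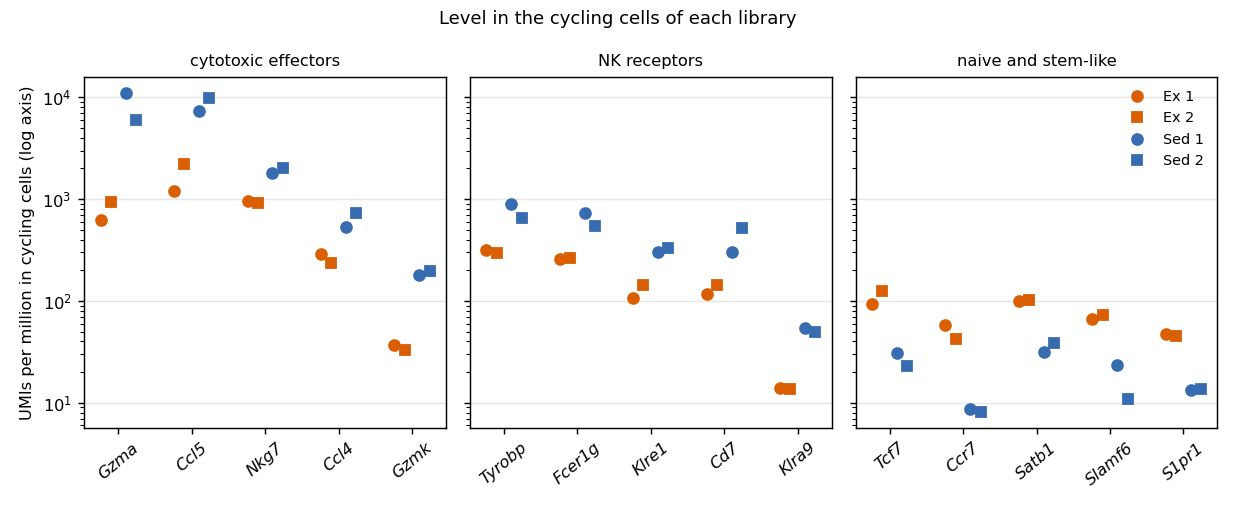
Level of 15 genes in the summed cycling cells of each library (CPM, log axis): 5 cytotoxic effectors, 5 NK receptors and adaptors and 5 genes of naive and stem-like T cells. The Ex points lie below the Sed points for the effectors and NK receptors and above them for the naive and stem-like genes, as with Gzma at 623 and 937 against 11009 and 5922.

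Cd4, Tnfrsf4 and Ctla4 were higher in the Ex members. Cd4, a gene used to sort lineages but not to choose the members, had 44.0 and 72.4 CPM in Ex, against 3.13 and 9.56 CPM in Sed (3.19 ± 0.46, adjusted p = 0.00123, and 0.165 with all sums thinned to the smallest total). Of 10 tested genes of the regulatory T cell list 1 rose, while 6 had values above 0 and 4 below, with a median of 0.68. The gene that rose, Tnfrsf4, encodes the costimulatory receptor OX40. It had 148 and 121 CPM in Ex, against 39.1 and 53.3 CPM in Sed (1.48 ± 0.25, adjusted p = 0.00386). Of the 4 marker genes of regulatory T cells, Foxp3 among them, all had values above 0 and only Ctla4 passed. Ctla4, an inhibitory receptor on regulatory and activated T cells, had 209 and 187 CPM in Ex, against 86.0 and 87.4 CPM in Sed (1.09 ± 0.21, adjusted p = 0.0116). It was the only gene of 16 in the checkpoint list to rise, while the inhibitory receptor gene Cd160 (-1.29 ± 0.24, adjusted p = 0.00798) and the nuclear receptor gene Nr4a2 (-1.12 ± 0.20, adjusted p = 0.00586) fell. Pdcd1, Lag3, Havcr2 and Tox did not pass, with changes of -0.14, -0.66, -0.96 and -0.69. Cd8b1 had 252 and 208 CPM in Ex, against 383 and 512 CPM in Sed (-1.04 ± 0.20, adjusted p = 0.0118, and 0.0599 without Ex 2). By DESeq2 Ctla4 had adjusted p = 0.0629, and with Scrublet doublets removed 0.0751.

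No gene of the lists for the cell cycle machinery passed the test. None of 42 S phase genes, 48 genes of G2 and M phase, 11 cyclins and cyclin-dependent kinases, 13 E2F and DREAM regulators or 18 genes of nucleotide synthesis passed, with medians of 0.10, -0.22, 0.01, -0.18 and 0.37. Hmgb2, a chromatin protein gene of dividing cells and the most abundant of the list for G2 and M phase, had 2619 and 2400 CPM in Ex, against 2697 and 2905 CPM in Sed. The cells had been chosen by cycle genes, which limits how far such genes could differ. Among 15 inhibitors and arrest genes the stress-induced Gadd45b rose (1.16 ± 0.23, adjusted p = 0.0134) and its relative Gadd45g fell (-1.43 ± 0.33, adjusted p = 0.0338). Gadd45b had 159 and 133 CPM in Ex, against 57.9 and 65.5 CPM in Sed, and Gadd45g 18.5 and 31.7 CPM in Ex, against 68.8 and 47.8 CPM in Sed. Both were lost by the DESeq2 Wald test, at adjusted p = 0.112 for Gadd45b and 0.43 for Gadd45g, and Gadd45g also without Ex 1 (adjusted p = 0.129) or Sed 1 (0.312).

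**Figure D4:**
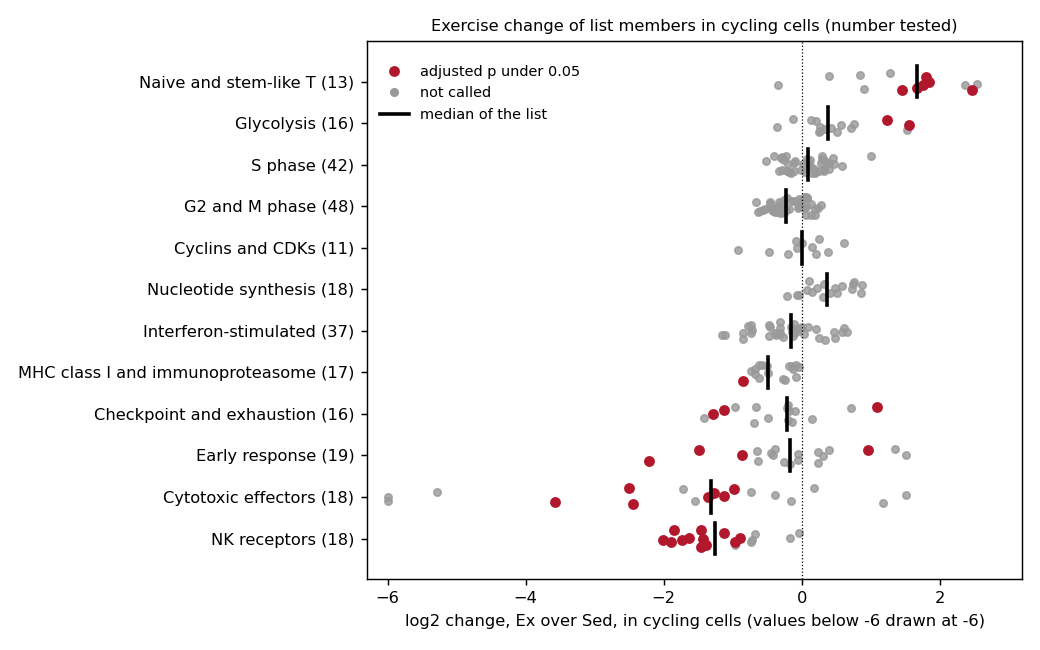
Log2 change, Ex over Sed, of the tested members of 12 gene lists in cycling cells; red points passed adjusted p 0.05, grey points did not, and black bars are list medians. The medians are -1.31 for cytotoxic effectors and -1.26 for NK receptors at the bottom, 1.67 for naive and stem-like genes at the top and 0.10 for S phase; values below -6 are drawn at -6.

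A pair of heat shock genes was lower in the Ex members. Hspa1a and Hspa1b encode the inducible chaperone HSP70 and lie beside each other on chromosome 17. Hspa1a had 86.5 and 98.0 CPM in Ex, against 467 and 318 CPM in Sed (-2.21 ± 0.24, adjusted p = 0.000146). Hspa1b had 104 and 113 CPM in Ex, against 332 and 224 CPM in Sed (-1.49 ± 0.24, adjusted p = 0.00238). Both were low in both Ex libraries. The 250 bases before their starts agree at 98.8% of positions, so 1 is shown, with the heat shock element GAANNTTC, read by heat shock factors, in capitals; 6.69% of promoters hold it.
Hspa1a (chr17:34972157-34972406, minus strand): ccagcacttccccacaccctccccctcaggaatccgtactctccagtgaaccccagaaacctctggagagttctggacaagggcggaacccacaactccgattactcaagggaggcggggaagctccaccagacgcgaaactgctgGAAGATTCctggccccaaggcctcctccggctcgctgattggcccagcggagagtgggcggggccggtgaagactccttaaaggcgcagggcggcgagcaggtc
The 2 genes are near-identical copies, so the split of their reads is uncertain. Both are members of the early response list, in which 1 of 19 rose and 3 fell. The inhibitor of NF-kB gene Nfkbia rose (0.96 ± 0.19, adjusted p = 0.0134), with 460 and 446 CPM in Ex, against 222 and 212 CPM in Sed. The phosphatase gene Dusp2 fell (-0.87 ± 0.19, adjusted p = 0.0253). Nfkbia had adjusted p = 0.0814 without Sed 2, and Dusp2 0.0866 without Ex 1 and 0.0705 without Sed 2. With the gate at 1 UMI they had 0.195 and 0.0713.

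Survival, adhesion and metabolism gave single genes. Bcl2 had 111 and 110.1 CPM in Ex, against 228 and 272 CPM in Sed (-1.26 ± 0.20, adjusted p = 0.0022), and was the only gene of 19 called in the list for the T cell receptor and interleukin 2. Itgb1, the beta 1 integrin chain that holds cells to matrix, had 309 and 434 CPM in Ex, against 120.5 and 132 CPM in Sed (1.44 ± 0.21, adjusted p = 0.00119). Il18r1, a receptor chain for interleukin 18, rose by 1.92 ± 0.38 (adjusted p = 0.0173, and 0.072 by DESeq2). Of 16 glycolysis genes 2 rose and 14 had values above 0, with a median of 0.38: the phosphofructokinase gene Pfkl at 1.24 ± 0.29 (adjusted p = 0.0332) and the lactate exporter gene Slc16a3 at 1.55 ± 0.36 (adjusted p = 0.0348). Pfkl had adjusted p = 0.0626 without Ex 2 and 0.153 without Sed 1, Slc16a3 0.163 without Sed 1, and by DESeq2 they had 0.526 and 0.516. With the gate at 1 UMI Il18r1 had 0.0902, Pfkl 0.18 and Slc16a3 0.678. None of 25 genes of oxidative phosphorylation passed, with a median of -0.12.

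Few antigen presentation and interferon genes passed. All 17 genes of MHC class I and the immunoproteasome had values below 0, with a median of -0.49, and 1 passed: H2-Q7, with 723 and 665 CPM in Ex, against 1053 and 1290 CPM in Sed (-0.85 ± 0.20, adjusted p = 0.0422). Its call ended without Ex 1, Ex 2 or Sed 2, at adjusted p = 0.0658, 0.292 and 0.0893, and with the gate at 1 UMI, at 0.246. None of 37 interferon-stimulated genes passed, with a median of -0.16. Of 11 GTPases induced by interferon gamma only Iigp1 rose, with 23.95 and 45.2 CPM in Ex, against 3.13 and 1.37 CPM in Sed (3.56 ± 0.58, adjusted p = 0.00276), and 19.7% of its UMIs lay in 1 cell.

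The largest rises and falls, named by a fixed rule, brought in further genes. Rora, a nuclear receptor of innate lymphoid cells and tissue T cells, had 69.5 and 69.4 CPM in Ex, against 8.60 and 17.8 CPM in Sed (2.39 ± 0.34, adjusted p = 0.00119). The chemokine gene Cxcl10 had 58.7 and 109 CPM in Ex, against 12.5 and 6.83 CPM in Sed (2.84 ± 0.38, adjusted p = 0.00106). Nt5e, which encodes the adenosine-producing enzyme CD73, rose by 2.04 ± 0.39 (adjusted p = 0.0105) and the sialic acid enzyme gene Cmah by 2.64 ± 0.47 (adjusted p = 0.00616). Ciita, the switch for MHC class II genes, rose by 3.23 ± 0.68 (adjusted p = 0.0197), Tbc1d4, which acts in glucose transporter traffic, by 2.89 ± 0.62 (adjusted p = 0.0229), and Timp2, an inhibitor of matrix proteases, by 2.09 ± 0.46 (adjusted p = 0.0235). The 8 conventional dendritic cell markers, led by the class II gene H2-Ab1, summed to 236 and 492 CPM in the Ex members, against 32.8 and 164 CPM in the Sed members; their part in the Ciita difference was not tested. Ccl2, also among the 12 largest rises, had UMIs in 1 and 2 members of Ex, against 4 and 6 of Sed, with 38.8% of them in 1 cell. Without Sed 1 the adjusted p was 0.107 for Ciita, 0.115 for Tbc1d4, 0.157 for Timp2 and 0.0667 for Ccl2; without Ex 1 it was 0.0835 for Ciita, and without Ex 2 0.13 for Ccl2. With the gate at 1 UMI Ciita changed by 0.60 (adjusted p = 0.847), Cxcl10 by 1.66 (0.122), Cmah by 2.32 (0.0613) and Tbc1d4 by 1.62 (0.0902). Nt5e had adjusted p = 0.232 by DESeq2 and 0.0525 with thinned sums, and Rora and Nt5e each had 0.098 within Cd8-positive members.

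Among the falls, Filip1, a gene for a filamin-interacting protein, had 3 UMIs over both Ex libraries and 62 over both Sed libraries, a ratio of Sed to Ex of 20.1 after scaling (95% counting interval 6.57 to 100.2). AA467197 had 12.4 and 16.6 CPM in Ex, against 185 and 91.5 CPM in Sed (-3.44 ± 0.42, adjusted p = 0.00176). AW011738 had 6.95 and 9.05 CPM in Ex, against 43.0 and 43.7 CPM in Sed (-2.56 ± 0.39, adjusted p = 0.00176). AC163354.1 changed by -2.42 ± 0.29 (adjusted p = 0.000252), the sulfotransferase gene Sult2b1 by -3.38 ± 0.63 (adjusted p = 0.00798), the guanine deaminase gene Gda by -2.59 ± 0.46 (adjusted p = 0.00596) and the glycogen-targeting phosphatase subunit gene Ppp1r3b by -2.71 ± 0.62 (adjusted p = 0.032). Mmp8, a neutrophil collagenase and 1 of the 8 neutrophil markers, had 2.32 and 1.51 CPM in Ex, against 21.9 and 58.7 CPM in Sed (-4.22 ± 0.64, adjusted p = 0.00176). S100a9, another of these markers, ran differently, with 6362 and 18.1 CPM in Ex, against 364 and 561 CPM in Sed. Without Sed 1 the adjusted p was 0.197 for Sult2b1 and 0.491 for Ppp1r3b, and without Ex 1 0.198 for Ppp1r3b. Without the members that took over 1% of UMIs from other cell types Gda had 0.162.

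Within the Cd8-positive members alone, 35 and 14 cells in Ex against 72 and 63 in Sed, more genes passed than in all members: 96 rose (1.6%) and 150 fell (2.5%) of 5989 tested, 4.11% in all. Of the 124 genes called in all members, 107 were tested here and 70 were called in the same direction. Gzma changed by -3.68 (adjusted p = 0.00947), Gzmk by -2.23 (adjusted p = 7.2e-05) and Ccl5 by -3.28 (adjusted p = 0.00606), while Tcf7 changed by 2.31 (adjusted p = 0.000698), Ccr7 by 2.90 (adjusted p = 0.000537) and Satb1 by 2.22 (adjusted p = 0.000896). Hspa1a changed by -2.70 and Itgb1 by 1.78. These effector and naive-type genes thus kept their direction within this gate. Over all members Ccl5 changed by -2.44 and Satb1 by 1.45, less than within the gate, and Gzmk by -2.50, more than within it. The list of naive and stem-like genes had 7 of 10 tested members up, cytotoxic effectors 7 of 15 down, NK receptors 3 of 10 down and MHC class I 7 of 17 down. Some differences of the whole were not called within the gate: Ctla4 changed by 0.20 (adjusted p = 0.843), Tnfrsf4 by 0.62 (adjusted p = 0.386), Tyrobp by -1.04 (adjusted p = 0.224) and Slamf6 by 1.85 (adjusted p = 0.149). Ex 2 gave only 14 cells, under the minimum of 30 set for a lineage, so these values are an alternative to the main result.

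Levels by gate showed where each gene stood. Gzma had 364 and 828 CPM in cycling Cd8-positive cells of Ex 1 and Ex 2, against 8071 and 6235 CPM in those of Sed 1 and Sed 2. In the NK or ILC gate Gzma had 6005 and 4576 CPM in Ex, against 15631 and 7373 CPM in Sed. In cycling Cd4-positive or Foxp3-positive cells it had 71.5 and 0 CPM in Ex, against 0 in both Sed libraries. Gzma was thus lower in Ex within both killer lineages. Ccl5 had 799 and 1803 CPM in cycling Cd8-positive cells of Ex, against 11700 and 12144 CPM in those of Sed, and Tcf7 110.0 and 122 CPM in Ex, against 26.9 and 16.4 CPM in Sed. Ctla4 stood highest in the Cd4-positive or Foxp3-positive cells, with 611 and 520 CPM in Ex, against 377 and 604 CPM in Sed, while Cd8-positive cells had 72.2 and 170 CPM in Ex, against 113 and 71.4 CPM in Sed. Within either gate the Ctla4 values of the groups overlapped. Itgb1 had 589 and 390 CPM in the NK or ILC gate of Ex, against 197 and 229 CPM in that of Sed. These levels by gate have no test, and those gates held as few as 3 cells, in the Cd4-positive or Foxp3-positive gate of Sed 1.

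**Figure D5:**
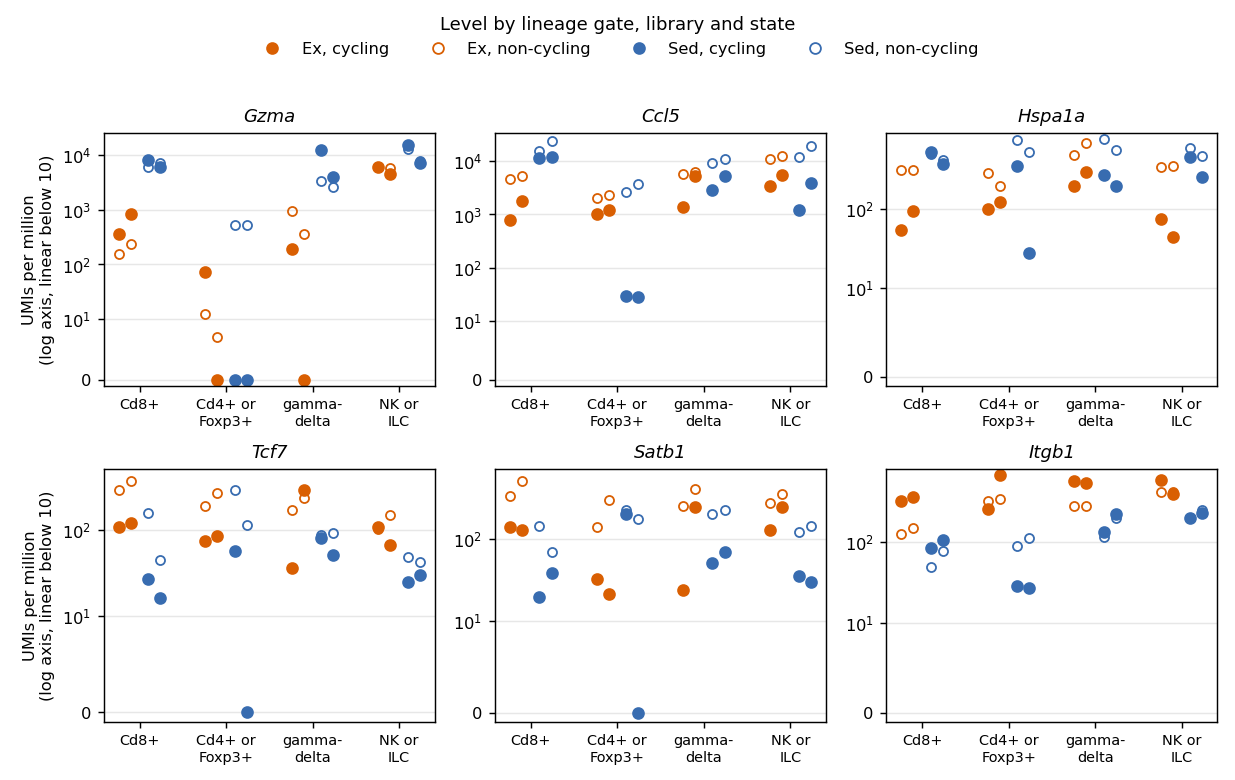
Level of 6 genes by lineage gate in the summed cells of each library (CPM, log axis, linear below 10); filled points are cycling and open points non-cycling cells, orange Ex and blue Sed. In the cycling Cd8-positive gate Gzma lies at 364 and 828 in Ex, against 8071 and 6235 in Sed.

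The third comparison asked whether exercise went with a different change in cycling than in non-cycling cells. In the non-cycling cells 60 genes rose (0.594%) and 179 fell (1.77%) of 10098 tested, 2.37% in all, and 35 of the 123 genes called in cycling cells and tested there were called in the same direction. The difference between the changes was tested in 1 edgeR model over both kinds of sum, with each library as a term. Of 9823 genes, 25 had a higher (0.255%) and 27 a lower (0.275%) change in cycling cells, 0.529% in all, and 25 of these 52 were also among the 124 called in cycling cells. The largest differences among the higher genes rested on few cells, as seen after their values were known. Col6a1, Col6a2, Col3a1, Pcolce and Timp1, genes of matrix-producing cells, had UMIs in the members of Ex 2 alone, with 59.1% to 65.4% of them in 1 cell. The class II genes H2-Aa, H2-Ab1, H2-Eb1 and Cd74 had 64.5% to 90% of their Sed UMIs in 1 member. Stress and receptor genes had smaller differences, spread over more cells. Hspa1a changed by -2.21 in cycling and -0.45 in non-cycling cells, a difference of -1.77 ± 0.19 (adjusted p = 0.000181), and Hspa1b by -1.49 and -0.04, a difference of -1.46 ± 0.19 (adjusted p = 0.00083). Ccl5 changed by -2.44 in cycling and -1.40 in non-cycling cells, a difference of -1.15 ± 0.17 (adjusted p = 0.00327). Slamf6 changed by 1.80 in cycling and 0.18 in non-cycling cells, a difference of 1.76 ± 0.36 (adjusted p = 0.0324). The changes of these 4 genes were larger in cycling cells. Gzma, Gzmk, Tcf7 and Ccr7 were not among the 52 genes.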

How the data were processed

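The deposited matrix holds raw UMI counts, which the authors made with a Cell Ranger aggregation of 4 libraries: version 7.0.0 with builds mm10 and GRCm38 per the submitters' processing notes, 6.1.1 per the file headers. Whether it equalised read depth was not given in the sources used here. Of 51140 columns 28525 have a barcode, with 135480097 UMIs, and the other 22615 were not used. Every comparison rests on the barcode endings following the library order of the aggregation table; breaks in the matrix lay 1, 1 and 33 cells from the ends of the barcode blocks.

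Members, gene lists and tests were chosen with earlier results of these data known. UMIs were summed per library and tested with edgeR 4.0.16 (quasi-likelihood, robust, filterByExpr, TMM; limma 3.58.1) under R 4.3.3, adjusted by Benjamini-Hochberg; the SE is the log2 change, unsigned, divided by the root of F. Shares were compared by exact permutation. Named genes were the 12 largest rises and falls that were called, reached 10 CPM in 1 group and showed no overlap, without ribosomal, mitochondrial, predicted and receptor segment genes, up to 4 called members per list, and markers; some genes of the rule and lists are not reported here. The cycling description took genes with at least 50 CPM. Promoters are RefSeq's (GRCm38.p6). On simulated data for the Ex against Sed comparison, 7460 genes were run. The test called 39 of 100 genes with a 2-fold change, 100 of 100 with a 4-fold change and 6 of 7590 with none. The 7590 include genes that the count filter left out. Changes were planted only in genes with a mean over 50 CPM, with spread from the dispersion trend, so these rates do not cover lower genes. Alternatives were DESeq2 1.42.0 (Wald test, size factors), no count filter, a stricter cell filter (500 genes, 5% mitochondrial UMIs), gates of 1 or 3 cycle UMIs or 2 lymphocyte UMIs, Scrublet doublets removed (scanpy 1.11.5, 0.8% expected per 1000 cells, because its automatic threshold marked 1, 1, 254 and 0 cells), thinning, leaving out each library, the replicate number as a block, and, chosen after seeing the data, members with at most 1% of UMIs from other cells. Other software was Python 3.11.15, numpy 2.4.6, scipy 1.17.1, pandas 2.3.3 and matplotlib 3.10.9.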

Additional observations from a re-analysis of the deposited data

Results flagged for a closer look

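For 18 genes named here the change with exercise differed between cycling and non-cycling cells by the edgeR interaction test (Benjamini-Hochberg adjusted p under 0.05 over 9823 genes). Differences are the log2 change in cycling minus that in non-cycling cells. The heat shock genes Hspa1a and Hspa1b differed by -1.77 (adjusted p = 0.000181) and -1.46 (adjusted p = 0.00083). The chemokine gene Ccl5 differed by -1.15 (adjusted p = 0.00327), its change being -2.44 in cycling and -1.40 in non-cycling cells.

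Receptor genes of NK cells had lower changes in cycling cells, by -2.24 for Klra9 (adjusted p = 0.00285), -1.72 for Klra7 (adjusted p = 0.00637), -1.81 for Cd244 (adjusted p = 0.031), -0.97 for Fcer1g (adjusted p = 0.0302) and -0.86 for Cd7 (adjusted p = 0.0474). Klra9 changed by 0.13 and Klra7 by -0.14 in non-cycling cells. The gamma chain genes Tcrg-C2 and Trgv2 differed by -2.13 (adjusted p = 0.0074) and -2.02 (adjusted p = 0.042). The chemokine receptor gene Ccr2 differed by -1.04 (adjusted p = 0.0302) and AW011738 by -1.87 (adjusted p = 0.0347).

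Higher changes in cycling cells were those of Slamf6 at 1.76 (adjusted p = 0.0324), Id3 at 1.79 (adjusted p = 0.0439) and Tnfrsf4 at 1.30 (adjusted p = 0.0375), whose changes in non-cycling cells were 0.18, -0.30 and 0.06. Ciita differed by 3.57 (adjusted p = 0.0194), Timp2 by 2.84 (adjusted p = 0.00327) and the lactate exporter gene Slc16a3 by 2.43 (adjusted p = 0.0041), its change being -0.97 in non-cycling cells. Cycling cells were deeper and held another mix of lineages than non-cycling cells. RNA of other cells differed between libraries in the non-cycling cells too. There the 8 neutrophil markers summed to 1043 and 2163 CPM in Ex, against 14900 and 5949 CPM in Sed. The 8 conventional dendritic cell markers summed there to 252 and 282 CPM in Ex, against 56.2 and 810 CPM in Sed. The part of depth, lineages and such RNA in these differences was not tested.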

How the results depend on the processing

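The count of 124 genes called for exercise was 75 with the DESeq2 Wald test, 306 with no count filter, 61 with the gate at 1 UMI of Mki67 and Top2a, 188 with at least 2 lymphocyte UMIs, 207 with at most 1% of UMIs from other cell types (114 of them among the 124), 246 in Cd8-positive members and 191 to 280 with a library left out, where a lone library is assumed to vary like the others. With the replicate block it was 142. The correlation of same-numbered libraries was 0.013, so the numbers were not taken as pairs; with the block Gzma had adjusted p = 0.347. The 52 genes of the difference between cycling and non-cycling cells became 18 by DESeq2, 166 with no filter, 34 with the gate at 1 UMI, 85 with at most 1% of other UMIs and 52 to 69 with a library left out.

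The cycling share differed by -5.09 to -3.05 points and the Cd8-positive share of cycling cells by -33.0 to -29.5 points with a library left out; the Foxp3-positive and Cd4-positive shares differed by 8.43 to 12.2 and 9.64 to 16.7 points, all keeping their direction under every alternative run. Small gates did not. The gamma-delta share (0.03 points, Ex minus Sed) was -0.45 with the stricter cell filter, -0.68 without doublets, -0.24 with at most 1% of other UMIs, -2.06 thinned and -2.75 to 2.80 with a library left out. The NK-receptor T share was -0.28 with the gate at 1 UMI and -0.11 to 3.67 with a library left out, and the cycling share within that gate 0.26 with the stricter cell filter and -3.32 to 1.44 with a library left out. The cycling share within other T cells was -1.25 thinned. With a library left out the NK or ILC share ran from -12.0 to 0.10 and the share of G2 and M phase from -7.47 to 1.24. Cycling minus non-cycling, the Cd4-positive share was -0.75 with the gate at 3 UMIs, -2.80 thinned and -1.42 to 3.198 with a library left out, the NK-receptor T share 1.37 thinned and the other T share 0.51 thinned.

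The log2 changes of 3 genes turned sign, none of them called then: Klra7 at 0.053 in Cd8-positive members, and Ccl2 at -1.38 and Timp2 at -0.064 with the gate at 1 UMI. A separate test of Cd8-positive cells was not run as a main result because Ex 2 held 14. Depth limits every gate that 1 UMI decides: over the 4 libraries, the mean share of cycling cells after thinning was 23.3% for T cells with no other lineage gene, 2.21% for Cd4-positive and 1.85% for Foxp3-positive cells, against 6.54%, 8.06% and 8.10% as deposited.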

Other observations

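The genes in this part were picked after their values were seen. In the cycling cells the gamma chain constant gene Tcrg-C2 had 6.95 and 19.6 CPM in Ex 1 and Ex 2, against 105 and 146 CPM in Sed 1 and Sed 2 (-3.49 ± 0.35, edgeR adjusted p = 8.49e-05). Its UMIs lay mainly in Cd8-positive members rather than in the gamma-delta gate, in 0 and 4 cells of Ex, against 32 and 36 cells of Sed. Within the Cd8-positive members it changed by -3.67 and was not called (edgeR adjusted p = 0.368). The variable gene Trgv2 had 5.41 and 12.1 CPM in Ex, against 54.7 and 64.2 CPM in Sed (-2.98 ± 0.39, edgeR adjusted p = 0.00084), and was found in 1 and 4 Cd8-positive members of Ex, against 28 and 25 of Sed. Gamma chain constant genes are near copies, so reads could be split between them.

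Of 5 linker histone genes, whose proteins bind DNA between nucleosomes, 3 passed and were lower in the Ex members. Hist1h1c had 114 and 139 CPM in Ex, against 252 and 276 CPM in Sed (-1.17 ± 0.20, edgeR adjusted p = 0.00401), Hist1h1d changed by -1.04 ± 0.21 and Hist1h1e by -1.002 ± 0.20 (edgeR adjusted p = 0.0134 each). Hist1h1e had adjusted p = 0.12 without Ex 2 and 0.166 within Cd8-positive members, and with the gate at 1 UMI Hist1h1c, Hist1h1d and Hist1h1e had 0.0846, 0.0637 and 0.0998 (edgeR). Hist1h1a and Hist1h1b did not pass, at 0.00 and -0.73. The mitochondrially encoded genes mt-Nd2 and mt-Nd3 were higher, at 0.85 ± 0.20 and 0.95 ± 0.19 (edgeR adjusted p = 0.0445 and 0.017), beside median mitochondrial shares of 3.54% and 3.78% in Ex, against 2.76% and 2.84% in Sed. Without Ex 1 mt-Nd2 had adjusted p = 0.12, without Ex 2 0.0959 and without Sed 1 0.132, and mt-Nd3 had 0.0699 without Ex 1 and 0.0537 without Sed 2 (edgeR).

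S100a4, a calcium-binding protein of migrating and effector cells, had 536 and 759 CPM in Ex, against 1401 and 1277 CPM in Sed (-1.16 ± 0.22, edgeR adjusted p = 0.00795, and 0.0668 without Ex 1). Among markers of other cells, Ighm rose (1.62 ± 0.25, edgeR adjusted p = 0.00168), with 148 and 136 CPM in Ex, against 36.0 and 51.9 CPM in Sed. The monocyte markers Plac8 (-1.01 ± 0.20, adjusted p = 0.0116), Ms4a6c (-1.55 ± 0.26, adjusted p = 0.00408) and Ccr2 (-0.93 ± 0.21, adjusted p = 0.0266) fell by the edgeR test. With at most 1% of UMIs from other cell types they had adjusted p = 0.0599, 0.781 and 0.238 by edgeR. Without 1 library, Ccr2 had adjusted p = 0.12 without Ex 2 and 0.0652 without Sed 1, and Plac8 0.0699 without Ex 1.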
